A study of Mus musculus with 12 samples.

Results

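The genes described here are 8 bone-resorbing effectors of osteoclasts, Acp5, Ctsk, Car2, Clcn7, Ostm1, Slc4a2, Rab38 and Calcr, which were given as a list of names, with no threshold on a measured value, when earlier results of these data were known. They are 8 of the 57010 genes listed in the count table, and 8 of 8 were among the 15425 genes that passed the filter on low counts. Osteoclasts are the cells of the monocyte lineage that dissolve bone. They seal a patch of bone, pump acid onto it across a ruffled border to remove the mineral, and secrete enzymes that cut the exposed collagen. M-CSF keeps their precursors alive, and RANKL turns on the resorption genes through the transcription factors NFATc1, AP-1, PU.1 and MITF.

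The libraries were made from preosteoclasts of LSD1WT and LSD1cKO mice, female and aged 2 months by the series' design text. The study's methods give the same age at ligature placement and an older age for the sequenced mice. LSD1 is the histone demethylase encoded by Kdm1a, and in LSD1cKO mice the floxed gene is deleted by a Cre that is driven by the LysM promoter, which is active in macrophages and granulocytes as well as in osteoclast precursors. Whether the LSD1WT mice carry the floxed alleles is not stated in the labels. Marrow came from the mandible or the femur of mice that had carried a tooth ligature for 7 days, or from the femur of mice with no ligature, and all cultures received M-CSF and RANKL for 2 days. Each of the 6 conditions had 2 libraries, 12 in all, from 9 mice (5 LSD1WT and 4 LSD1cKO), and both sites of 3 of these mice were sequenced. The LSD1WT mandible libraries are numbered 1 and 3, and the library name of the latter says femur while its title says mandible. It was taken as mandible.

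Library totals were 21375805 to 32526751 counts. Kdm1a stood at 61.2 to 71.3 CPM (counts relative to the scaled library size) in the 6 LSD1WT libraries and at 15.6 to 24.3 CPM in the 6 LSD1cKO libraries, so the genotype labels held in every library. The femur LSD1WT libraries numbered 2 (1 from a ligated and 1 from an unligated mouse) stood apart. Their 9 osteoclast lineage markers summed to 3930 and 3109 CPM, against 7997 to 27927 CPM in the other 10 libraries. Most of the 2 sums was Csf1r, which was higher there, at 3684 and 2765 CPM, against 776.7 to 2078 CPM. Every other marker of this list was lower in these 2 libraries than in the other 10, as with Dcstamp at 0.565 and 1.12 CPM. In these 2 libraries the 11 macrophage markers summed to 46018 and 22309 CPM, against 2110 to 9921 CPM in the others. Most of these sums was Lyz2, at 35330 and 13829 CPM. Cd68, at 1102 and 1168 CPM, lay within the range of the other libraries, and every other macrophage marker was higher in these 2. The 4 megakaryocyte markers summed to 903.5 and 439.1 CPM, against 10.6 to 61.1 CPM. That sum was nearly all Pf4 in these 2 libraries, at 883.5 and 433.2 CPM. Itga2b was at 5.23 and 1.49 CPM, Gp9 at 0.462 and 0 CPM and Ppbp at 14.3 and 4.43 CPM. The results below are therefore given with these 2 libraries and without them. Leaving them out is no neutral choice, because they are LSD1WT libraries that are low in the genes under study, and removing them raises the LSD1WT level.

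The regulatory sequence of the genes that marked the ends of the range was read from RefSeq, which listed 11 transcription starts for 6 of the 8 genes and none for Car2 and Rab38. Between the femur LSD1WT libraries of ligated mice Ctsk differed most and Ostm1 least, and each had a single start. Acp5 and Clcn7 are shown at the starts whose windows held an E-box or an M-box, the letters bound by MITF and its relatives. The lines give the 250 bases before the start on build GRCm38.p6, written 5′ to 3′ on the gene's strand. Capitals mark 5 motifs searched on both strands, which are the NFAT core GGAAA, the AP-1 site TGANTCA, the E-box CACGTG, the M-box TCATGTG and the PU.1 core GAGGAA, where GAGGAA and GGAAA can share bases.
Ctsk, chr3:95498960-95499209 (plus strand): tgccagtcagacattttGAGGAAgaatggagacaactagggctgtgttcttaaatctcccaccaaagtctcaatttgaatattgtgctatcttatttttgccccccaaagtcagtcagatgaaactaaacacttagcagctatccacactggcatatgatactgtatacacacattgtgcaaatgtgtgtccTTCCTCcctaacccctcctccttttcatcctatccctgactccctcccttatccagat
Acp5, the third listed start, chr9:22130599-22130848 (minus strand): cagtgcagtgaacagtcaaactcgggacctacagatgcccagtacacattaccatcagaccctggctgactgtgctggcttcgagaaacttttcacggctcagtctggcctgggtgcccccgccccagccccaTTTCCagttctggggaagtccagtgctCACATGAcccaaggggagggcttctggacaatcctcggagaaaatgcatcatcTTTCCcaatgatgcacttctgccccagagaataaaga
Clcn7, the first listed start, chr17:25133141-25133390 (plus strand): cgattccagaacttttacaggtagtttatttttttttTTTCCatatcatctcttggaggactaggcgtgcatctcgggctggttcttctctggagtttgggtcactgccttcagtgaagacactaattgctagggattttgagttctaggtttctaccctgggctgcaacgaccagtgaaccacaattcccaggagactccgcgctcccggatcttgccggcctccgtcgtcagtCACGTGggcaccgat
Clcn7, the second listed start, chr17:25136381-25136630 (plus strand): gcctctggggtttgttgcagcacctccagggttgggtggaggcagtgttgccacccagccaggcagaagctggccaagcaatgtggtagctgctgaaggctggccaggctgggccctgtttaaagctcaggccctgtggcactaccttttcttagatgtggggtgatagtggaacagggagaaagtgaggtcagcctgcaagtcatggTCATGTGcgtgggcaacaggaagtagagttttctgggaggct
Ostm1, chr10:42678666-42678915 (plus strand): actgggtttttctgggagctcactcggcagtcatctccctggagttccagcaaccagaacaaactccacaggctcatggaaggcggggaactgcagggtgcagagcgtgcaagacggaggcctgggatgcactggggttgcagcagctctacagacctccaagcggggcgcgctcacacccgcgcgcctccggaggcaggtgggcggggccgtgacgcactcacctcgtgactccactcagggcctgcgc

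The Ctsk window held the PU.1 core at -233 and -58 from the start. The Acp5 window held the NFAT core at -117 and -37 and the M-box at -90. Clcn7 had the E-box at -15 of its first start, beside an NFAT core at -213, and the M-box at -42 of its second. None of the 5 motifs occurred in the Ostm1 window. Over all 11 starts of the 8 genes, the NFAT core was in 6, the PU.1 core in 2, the M-box in 2, the E-box in 1 and the AP-1 site in 0. Of 32851 windows of the same length in RefSeq, 55.6% held the NFAT core, 23.3% the PU.1 core, 6.75% the AP-1 site, 6.02% the E-box and 3.25% the M-box. A match describes the letters only.

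Transcript levels were first compared between the genes, per kilobase of exon. In the mandible LSD1WT library 1, Ctsk stood at 4814 and Acp5 at 2384 CPM per kilobase. The level was 118.9 for Car2, 100.8 for Clcn7, 82.2 for Slc4a2, 40.0 for Rab38, 28.1 for Ostm1 and 11.5 for Calcr in the same library and unit. The same order held in the 4 mandible libraries. Between the 2 mandible libraries of a genotype no level moved enough to change it. Ctsk ranked first in 9 of 12 libraries and Calcr last in 10, while Car2 and Clcn7 were close and exchanged places, with Car2 next below Acp5 and Ctsk in 7 libraries and Clcn7 in 3. In the femur LSD1WT libraries numbered 2 the order was instead led by Clcn7, then Ostm1 and Slc4a2. Together the 8 genes took 1.39% to 1.71% of all counts in the other 4 LSD1WT libraries and 0.586% to 1.11% in the 6 LSD1cKO libraries. They took 0.0350% and 0.0418% in the femur LSD1WT libraries numbered 2.

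**Figure D1:**
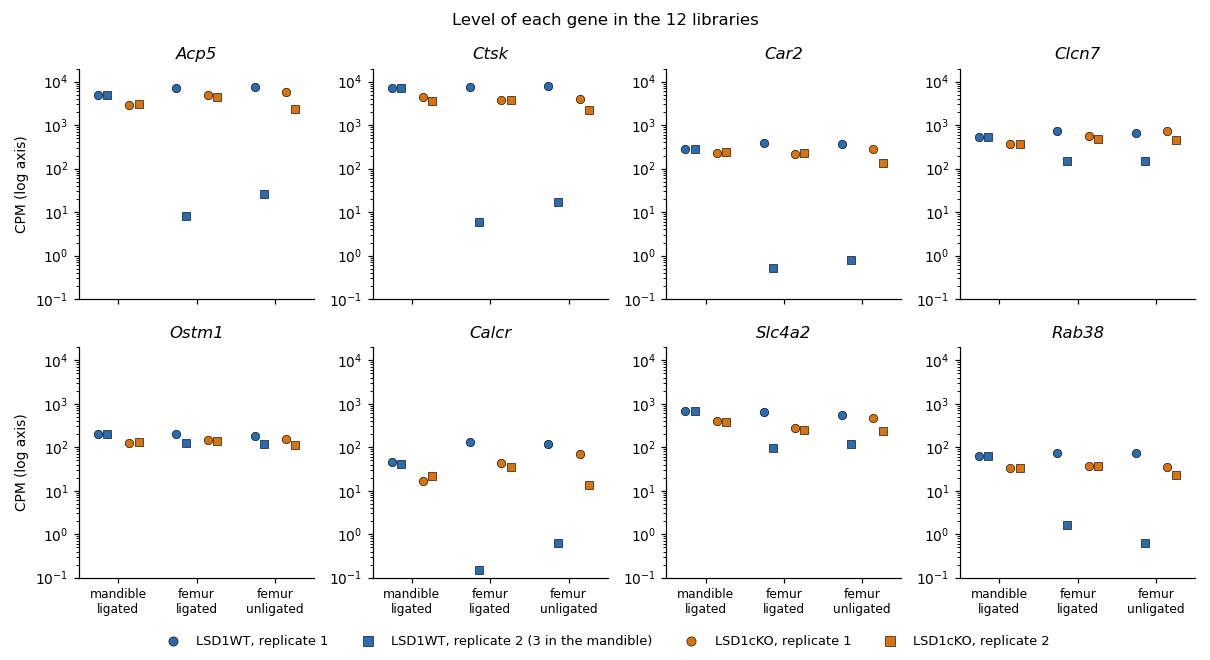
CPM (TMM-scaled, log axis) of each gene in the 12 libraries, by culture, with LSD1WT in blue, LSD1cKO in orange, and circles and squares for the 2 libraries of a condition. Ctsk lay between 2197 and 7875 CPM in 10 libraries and at 5.90 and 17.1 CPM in the femur LSD1WT libraries numbered 2 (blue squares), where Ostm1 was at 124.4 and 118.9 CPM.

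The enzymes that act on the matrix were the most abundant of the set. Acp5 (ENSMUSG00000001348) encodes tartrate-resistant acid phosphatase, the classical stain for osteoclasts. In the mandible it measured 4840 and 4832 CPM for LSD1WT, against 2961 and 3039 CPM for LSD1cKO. In the femur of ligated mice it measured 7234 and 8.31 CPM for LSD1WT, against 4880 and 4458 CPM for LSD1cKO. In unligated mice the femur values were 7677 and 26.1 CPM for LSD1WT, against 5778 and 2403 CPM for LSD1cKO. The genotypes did not overlap in the mandible, where LSD1cKO was lower, and in each femur condition the LSD1cKO libraries lay between the 2 LSD1WT libraries. Fewer osteoclasts in a culture and less transcript in each of them cannot be told apart in such bulk libraries, and this holds for each gene below.

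Ctsk (ENSMUSG00000028111) encodes cathepsin K, the protease that cuts type I collagen in the acid of the resorption pit. Its mandible levels were 7278 and 7133 CPM for LSD1WT, against 4326 and 3669 CPM for LSD1cKO. In ligated mice the femur levels were 7599 and 5.90 CPM for LSD1WT, against 3775 and 3836 CPM for LSD1cKO. In unligated mice they were 7875 and 17.1 CPM for LSD1WT, against 3939 and 2197 CPM for LSD1cKO. Every LSD1cKO library was below each of the 4 LSD1WT libraries other than the femur libraries numbered 2. Stromal cells also make some cathepsin K, and the 8 stromal and osteoblast markers, of which 3 passed the filter, summed to 40.9 and 41.5 CPM for LSD1WT, against 8.69 and 3.28 CPM for LSD1cKO, in the mandible. The range in the femur was 0.453 to 26.6 CPM. The part of these cells in the Ctsk level was not tested.

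The next group makes the acid and balances its charge. Car2 (ENSMUSG00000027562), the cytosolic carbonic anhydrase that supplies the protons, stood at 287.9 and 287.8 CPM (LSD1WT) against 232.8 and 236.8 CPM (LSD1cKO) in the mandible. Ligated mice gave femur values of 389.8 and 0.513 CPM (10 counts) for LSD1WT, against 221.9 and 225.2 CPM for LSD1cKO. Unligated mice gave 363.2 and 0.787 CPM for LSD1WT, against 280.3 and 133.9 CPM for LSD1cKO. The 6 LSD1cKO libraries were all below the 4 LSD1WT libraries other than the femur libraries numbered 2, by a small margin (280.3 against 287.8 CPM). Red cells and their precursors are also rich in this enzyme, and the 8 erythroid markers summed to 0.0647 to 3.54 CPM, with Car1 and Slc4a1 at 0 counts in all 12 libraries.

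Clcn7 (ENSMUSG00000036636) encodes the chloride-proton exchanger ClC-7, and Ostm1 (ENSMUSG00000038280) its obligate partner subunit, without which the exchanger is unstable. Clcn7 stood at 533.3 and 535.0 CPM (LSD1WT) against 373.7 and 377.0 CPM (LSD1cKO) in the mandible. In the femur of ligated mice it was 750.5 and 149.0 CPM for LSD1WT, against 551.6 and 475.5 CPM for LSD1cKO. In unligated mice it was 646.9 and 150.6 CPM for LSD1WT, against 730.0 and 463.7 CPM for LSD1cKO. It was the only gene of the 8 whose level in a femur LSD1cKO library exceeded that of the LSD1WT library numbered 1 of the same culture.

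Ostm1 varied least. The mandible levels were 202.3 and 201.4 CPM for LSD1WT, against 123.6 and 134.2 CPM for LSD1cKO. The femur levels in ligated mice were 205.7 and 124.4 CPM for LSD1WT, against 150.0 and 137.1 CPM for LSD1cKO. In unligated mice they were 183.9 and 118.9 CPM for LSD1WT, against 156.8 and 111.4 CPM for LSD1cKO. The lowest and the highest of the 12 values, 111.4 and 205.7 CPM, are closer together, as a ratio, than for any other gene of the set. Its exons share 410 of 7211 bases with the antisense gene Gm15200, and whether reads were counted by strand is not given in the sources used here.

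Slc4a2 (ENSMUSG00000028962) encodes the anion exchanger AE2, which imports chloride and releases bicarbonate on the side away from the bone. In the mandible it measured 684.3 and 687.9 CPM for LSD1WT, against 408.4 and 389.6 CPM for LSD1cKO. In the femur of ligated mice it measured 652.9 and 94.5 CPM for LSD1WT, against 277.0 and 247.1 CPM for LSD1cKO. Femur values in unligated mice were 557.9 and 118.6 CPM for LSD1WT, against 470.1 and 241.0 CPM for LSD1cKO. Every LSD1cKO value lay below the 4 LSD1WT values other than those of the femur libraries numbered 2. Its exons share 1141 of 8322 bases with Fastk on the opposite strand, and those of Acp5 share 137 of 2030 with 6530413G14Rik, also opposite. How reads in such overlaps were counted is not given, so these counts may be affected.

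Rab38 (ENSMUSG00000030559) encodes a small GTPase that sorts cargo to lysosome-related organelles, to which the ruffled border belongs. Its mandible levels were 63.0 and 63.5 CPM for LSD1WT, against 32.9 and 32.6 CPM for LSD1cKO. The femur levels of ligated mice were 73.7 and 1.59 CPM for LSD1WT, against 36.4 and 36.9 CPM for LSD1cKO. Those of unligated mice were 74.8 and 0.621 CPM for LSD1WT, against 35.4 and 23.0 CPM for LSD1cKO. The LSD1cKO levels reached at most 36.9 CPM, and the 4 LSD1WT levels without the femur libraries numbered 2 were at least 63.0 CPM. No other gene of the set had so wide a gap on a ratio scale.

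Calcr (ENSMUSG00000023964) encodes the calcitonin receptor, through which the hormone calcitonin stops resorption. Per kilobase it was the lowest of the set in 10 of 12 libraries, and Ostm1 was lower in the femur LSD1WT libraries numbered 1. The mandible levels were 45.0 and 41.2 CPM for LSD1WT, against 16.5 and 22.1 CPM for LSD1cKO. In ligated mice the femur levels were 135.3 and 0.154 CPM (3 counts) for LSD1WT, against 43.6 and 34.2 CPM for LSD1cKO. In unligated mice they were 118.3 and 0.621 CPM (15 counts) for LSD1WT, against 68.3 and 13.6 CPM for LSD1cKO. The mandible LSD1WT levels lay within the range of femur LSD1cKO, 13.6 to 68.3 CPM.

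The spread between the femur LSD1WT libraries was the largest difference in the data and differed between the 8 genes. In ligated mice the library numbered 1 exceeded the library numbered 2 by 1288-fold for Ctsk (exact 95% counting interval 1073 to 1560). The ratio was 878.7 for Calcr (300.5 to 4263, on 3 counts), 870.2 for Acp5 (746.0 to 1021) and 759.7 for Car2 (412.9 to 1585). It was 46.3 for Rab38 (32.5 to 68.3). It fell to 6.91 for Slc4a2 (6.59 to 7.25), 5.04 for Clcn7 (4.85 to 5.24) and 1.65 for Ostm1 (1.58 to 1.73). In these ligated mice the genes fell into 3 ranges, with the enzymes and the calcitonin receptor at the top, Rab38 between, and the 2 transporters and Ostm1 at the bottom.

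In unligated mice the same ratio was 459.4 for Ctsk, 461.6 for Car2, 294.2 for Acp5, 190.4 for Calcr and 120.5 for Rab38. It was 4.71 for Slc4a2, 4.30 for Clcn7 and 1.55 for Ostm1. There the counting intervals of Rab38 (72.9 to 215.7) and Calcr (115.3 to 340.6) overlapped, so Rab38 formed no separate range. The median absolute log2 difference between the LSD1WT libraries was 7.34 over the 8 genes and 0.733 over all genes tested in ligated mice, and 7.08 against 0.657 in unligated mice. Between the LSD1cKO libraries of unligated mice it was 0.903 against 0.489, where the library numbered 1 exceeded the library numbered 2 by 5.01-fold for Calcr, 2.41-fold for Acp5 and 1.41-fold for Ostm1. The 2 mandible LSD1WT libraries differed by a median of 0.00699 over the 8 genes. Over all genes these 2 libraries differed by more than counting error, with a chi-square per degree of freedom of 3.11, against 15.2 to 713.3 in the other pairs. They were counted as 2 libraries, as labelled, although repeat preparations of 1 sample can also differ by more than counting error. The intervals cover counting error only.

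**Figure D2:**
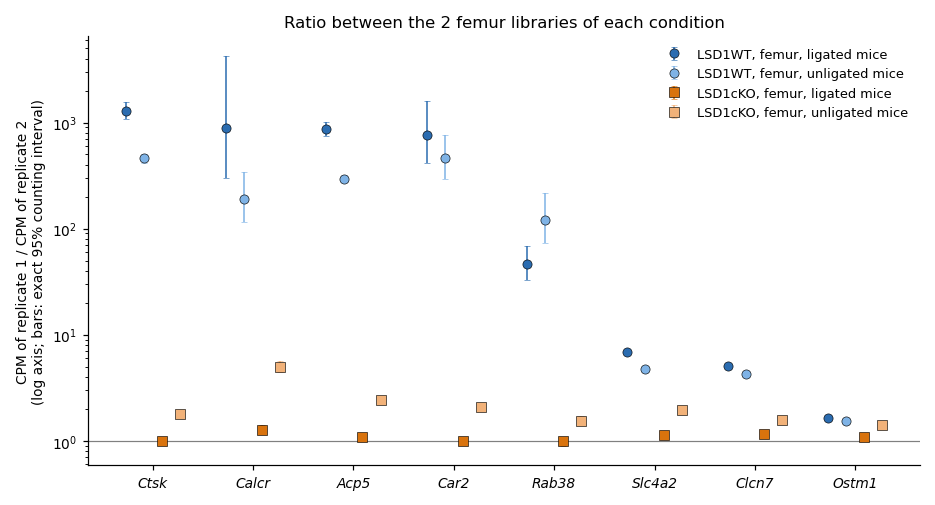
Ratio of the CPM of replicate 1 to that of replicate 2 in each of the 4 femur conditions (log axis), by gene, with exact 95% counting intervals as bars. In LSD1WT (blue) the ratio ran from 1288 for Ctsk to 1.65 for Ostm1 in ligated mice, and in LSD1cKO (orange) it was at most 5.01, for Calcr in unligated mice.

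Whether LSD1 loss changed the effectors was asked in each culture and over the 3 cultures. In the mandible, where the LSD1WT pair was tight, all 8 genes had their 2 LSD1cKO values below their 2 LSD1WT values, as were 34.8% of all genes tested. The mean fell from 7206 ± 102.7 to 3997 ± 464.6 CPM for Ctsk (SD, n = 2), from 4836 ± 5.73 to 3000 ± 55.2 CPM for Acp5 and from 43.1 ± 2.63 to 19.3 ± 3.92 CPM for Calcr. In the fit of all 12 libraries the log2 fold change of LSD1cKO against LSD1WT was -1.16 ± 2.12 (SE) for Calcr, -0.95 ± 1.69 for Rab38, -0.85 ± 2.31 for Ctsk and -0.78 ± 0.87 for Slc4a2. It was -0.69 ± 2.22 for Acp5, -0.65 ± 0.31 for Ostm1, -0.51 ± 0.77 for Clcn7 and -0.29 ± 2.18 for Car2. The median over the 8 genes was -0.74, against 0.00 over all genes.

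None of the 8 passed the test in the mandible (edgeR quasi-likelihood test, Benjamini-Hochberg adjusted p of 1), where 0% of all genes did. At an unadjusted p under 0.05 the count was 0 of 8, against 744 of all genes, and DESeq2 called 0 of 8 and 146 of all genes. The lowest unadjusted p was 0.0672, for Ostm1, the gene with the smallest SE. All conditions share 1 estimate of the spread, the divided femur LSD1WT pairs included. With the 4 mandible libraries fitted alone, 8 of 8 were called lower, at the median of -0.73, as were 18.6% of all genes. That fit rests on the near-identical LSD1WT pair.

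In the femur no gene of the set separated the genotypes, because the LSD1WT libraries numbered 1 and 2 lay on both sides of the LSD1cKO libraries or overlapped them. All 8 overlapped in ligated and in unligated mice, where 19.4% and 8.57% of all genes were lower in LSD1cKO without overlap. The log2 fold changes ran from -0.80 to 0.37 in ligated mice, with a median of -0.02, against -0.12 over all genes, and from -0.54 to 0.58 in unligated mice, with a median of -0.05. No gene of the set was called in either (adjusted p of 0.92 or more). Over all genes 0.00648% were called in ligated mice, which is Kdm1a alone, and 0% in unligated mice. Against the LSD1WT library numbered 1 alone, both LSD1cKO libraries were lower for 8 of 8 genes in ligated mice (46.7% of all genes) and for 7 of 8, all but Clcn7, in unligated mice (30.1%).

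Over the 3 cultures the fit of 12 libraries called none of the 8, against 3.53% of all genes (544 of 15425). The log2 fold change was -0.83 for Calcr, -0.45 for Rab38, -0.41 for Slc4a2, -0.40 for Ctsk and -0.34 for Ostm1. It was -0.08 for Acp5, 0.03 for Car2 and 0.09 for Clcn7, and the lowest adjusted p was 0.37, for Ostm1. Kdm1a differed by -1.82 ± 0.10 in the same fit (adjusted p = 3.6e-05).

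Without the femur LSD1WT libraries numbered 2, 6 of the 8 genes were called lower in LSD1cKO over the 3 cultures, against 9.75% of all 16008 genes tested. Calcr fell by 1.41 ± 0.33 on the log2 scale (SE, adjusted p = 0.012), Rab38 by 1.05 ± 0.13 (adjusted p = 0.00028) and Ctsk by 1.00 ± 0.17 (adjusted p = 0.0023). Slc4a2 fell by 0.86 ± 0.18 (adjusted p = 0.0056), Acp5 by 0.70 ± 0.21 (adjusted p = 0.034) and Ostm1 by 0.51 ± 0.11 (adjusted p = 0.0065). Car2 (-0.55 ± 0.18, adjusted p = 0.053) and Clcn7 (-0.37 ± 0.14, adjusted p = 0.077) did not pass. The median was -0.78, against 0.02 over all genes.

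With these 10 libraries, 5 of the 8 genes (Ctsk, Car2, Ostm1, Slc4a2 and Rab38) did not overlap between the 4 LSD1WT and the 6 LSD1cKO libraries, against 7.24% of all genes. In the mandible Rab38 was the only gene of the set called, at a log2 fold change of -0.92 (adjusted p = 0.036). Its log2 fold change was -0.92 in the femur of ligated mice and -1.35 in the femur of unligated mice. Each femur culture then held 1 LSD1WT library, with no LSD1WT replicate, so calls of the 8 genes within it are not counted. Over all genes 0.712%, 2.46% and 0.337% were called lower in these comparisons. With the mandible LSD1WT pair also summed into 1 library, 5 of 8 were called lower over the 3 cultures (6.41% of all genes) and none in a single culture. With the mouse as a replicate block in limma, 8 of 8 were called lower over the 3 cultures, against 13.0% of all genes.

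**Figure D3:**
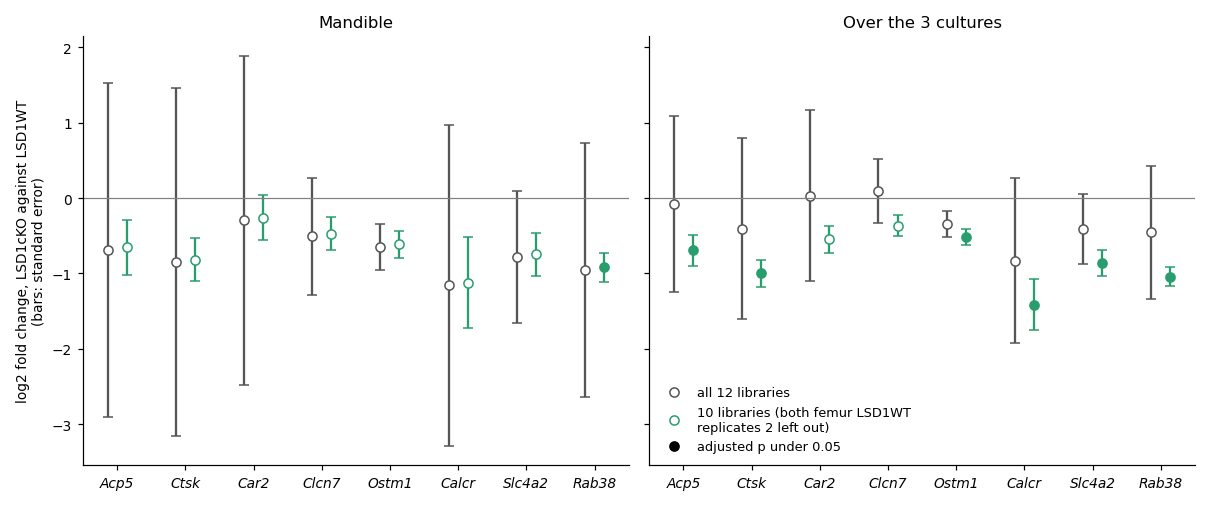
Log2 fold change of LSD1cKO against LSD1WT for the 8 genes in the mandible (left) and over the 3 cultures (right), with the SE as bars, from all 12 libraries (grey) and from the 10 libraries without the femur LSD1WT libraries numbered 2 (green); filled points passed an adjusted p of 0.05. Over the 3 cultures 0 points are filled for 12 libraries and 6 for 10.

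Site and ligature were compared next. In LSD1cKO, whose 2 ligated mice each gave both sites, 5 genes (Acp5, Clcn7, Ostm1, Calcr and Rab38) were lower in the mandible than in the femur of ligated mice without overlap, against 35.0% of all genes. Car2 and Slc4a2 were higher without overlap, against 35.3%. The log2 difference was -1.01 ± 2.12 for Calcr and 0.61 ± 0.87 for Slc4a2, and 0 of 8 genes and 0% of all genes were called. With the 4 libraries fitted alone, 4 of 8 (Acp5, Clcn7 and Calcr lower, Slc4a2 higher) were called, against 42.1% of all genes.

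In LSD1WT the site difference turned on the femur library numbered 2. The log2 difference between mandible and femur had a median of 0.49 over the 8 genes with all libraries, -0.33 without that library and 6.74 without the library numbered 1, and none was called, at 0% of all genes. The genotype difference by site had log2 interaction values from -1.06 to -0.27 with SEs from 0.43 to 3.24. No gene was called, at 0% of all genes, and values with these errors do not show that the sites were alike. The median interaction was -7.31 without the ligated femur LSD1WT library numbered 1 and 0.11 without that numbered 2. Without the femur LSD1WT libraries numbered 2 these interaction values ran from -0.18 to 0.59.

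The ligature is placed in the mouth, so the femur comparison asks whether it acts at a distance. The median log2 difference between ligated and unligated mice was 0.11 in LSD1WT and 0.10 in LSD1cKO. Single libraries turned both. In LSD1WT, whose 2 pairs were divided, it was -6.57 without the ligated library numbered 1 and 6.35 without the unligated library numbered 1. Without the libraries numbered 2 in the same way it was 0.95 and -0.90. In LSD1cKO it was 0.75 without the unligated library numbered 1 and -0.30 without that numbered 2. No gene of the set was called in either genotype, and 0% of all genes were. At an unadjusted p under 0.05 the count over all genes was 118 in LSD1WT and 148 in LSD1cKO, with none of the 8 genes among them.

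The other genes of the resorption machinery were counted from lists fixed with earlier results known. The proton pump that acidifies the pit had 18 subunits in its list. In the mandible 16 of 18 were lower in LSD1cKO, and the median was -0.46. The lowest were Atp6v1b2, at -0.87, and Atp6v1h, at -0.76, both of the cytosolic part that burns ATP, and the highest were the membrane subunits Atp6v0a1, at 0.08, and Atp6v0a2, at 0.03. None was called with 12 libraries. Without the femur LSD1WT libraries numbered 2, 12 of 18 were called lower over the 3 cultures and 0 higher, against 9.75% of all genes called lower and 14.4% called higher. They included Atp6v0d2, the osteoclast form of the d subunit, which fell by 0.79 (adjusted p = 0.0030), and Tcirg1, the osteoclast a3 subunit, which fell by 0.33 (adjusted p = 0.039).

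In the femur LSD1WT libraries of ligated mice Atp6v0d2 was at 2185 and 17.0 CPM, whereas Tcirg1 was at 1472 and 489.2 CPM. Atp6v0a1, the a1 subunit used by other cells, went the other way, at 51.1 and 383.8 CPM.

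Other proteases did not share 1 direction. Of 12 matrix proteases and inhibitors, 7 were lower and 5 higher in the mandible, with a median of -0.13, and none was called with 12 libraries. Over the 3 cultures of the 10 libraries, 2 were called lower and 3 higher, against the same 9.75% and 14.4% of all genes. Mmp9 fell by 0.96 and Mmp14 by 0.95, both matrix metalloproteinases. Ctss, the cathepsin of antigen presentation, rose by 1.50, Ctsl by 0.83 and the inhibitor Serpinb6a by 0.75. Ctss stood at 254.1 and 258.5 CPM (LSD1WT) against 488.4 and 650.9 CPM (LSD1cKO) in the mandible, opposite to Ctsk.

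Ruffled border trafficking genes were divided in the same way. In the mandible 7 of the 14 tested were lower and 7 higher (the list has 15, of which Syt7 did not pass the filter). With 12 libraries the fit over the 3 cultures called Plekhm1, an adaptor of lysosome fusion with the ruffled border, lower by 0.61 (log2 fold change -0.61, adjusted p = 0.015) and Def8 higher by 0.50 (adjusted p = 0.017). With 10 libraries 6 were called lower (9.75% of all genes), among them Tm4sf19 (-1.24) and Snx10 (-0.90), a sorting nexin needed for resorption. Another 6 were called higher (14.4% of all genes), among them Rab27a (1.44), the lysosomal membrane protein Lamp2 (0.92) and Rab32 (0.87), the nearest relative of Rab38. Rab32 stood at 51.0 and 52.3 CPM (LSD1WT) against 108.7 and 125.3 CPM (LSD1cKO) in the mandible. In the femur LSD1WT libraries of ligated mice it was at 81.7 and 318.2 CPM, the reverse of Rab38.

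Of 13 sealing zone genes, 11 were lower in the mandible, with a median of -0.33. None was called with 12 libraries. With 10 libraries 3 were called lower over the 3 cultures (9.75% of all genes) and 0 higher. These were Itgb3, the β3 integrin that holds the cell to bone (-1.28), Cttn, an actin-binding protein of podosomes (-1.26), and Pxn (-0.42).

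Among 19 regulators of differentiation, 13 were lower in the mandible, with a median of -0.28, and none was called with 12 libraries. With 10 libraries 8 were called lower (9.75% of all genes), among them the co-receptor Oscar (-1.23), the fusion gene Dcstamp (-0.89) and the master factor Nfatc1 (-0.69). The 3 of 19 called higher, a share near the 14.4% of all genes, included Irf8 (1.17) and Bcl6 (0.60), which are repressors of osteoclast differentiation.

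Relatives of the 8 genes were split. Of 30 family members, 20 passed the filter, 12 were higher and 8 lower in the mandible, and the median was 0.12. Over the 3 cultures with 12 libraries 9 were higher and 11 lower, with a median of -0.07. That fit called 2, both higher, which were the mitochondrial carbonic anhydrase Car5b (1.55, adjusted p = 0.0025) and Calcrl (0.47, adjusted p = 0.042), a receptor that binds calcitonin gene-related peptide and adrenomedullin with RAMP proteins. Car5b stood at 5.02 and 5.36 CPM (LSD1WT) against 19.1 and 25.0 CPM (LSD1cKO) in the mandible. With 10 libraries 8 relatives were called higher (14.4% of all genes) and 2 lower (9.75%).

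**Figure D4:**
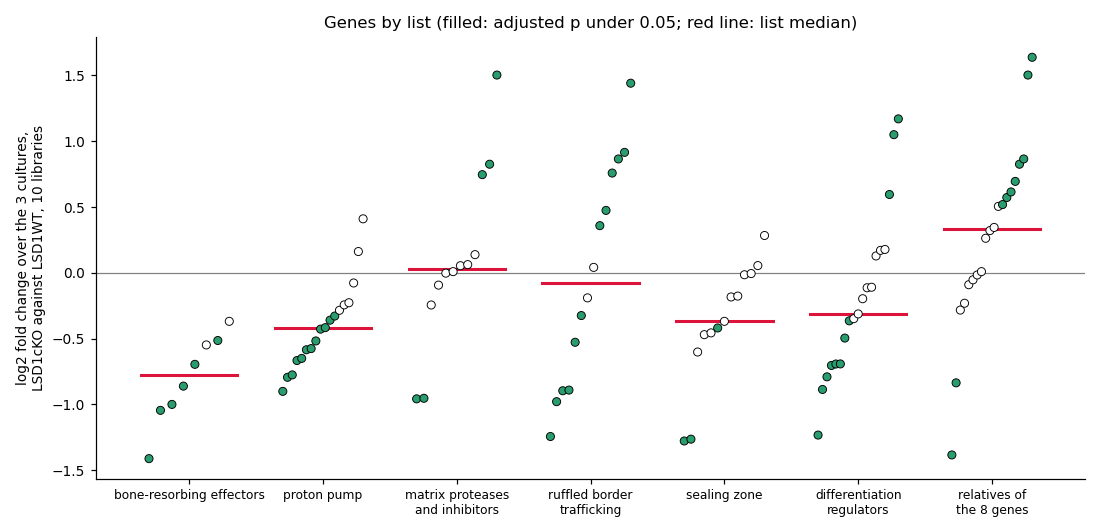
Log2 fold change of LSD1cKO against LSD1WT over the 3 cultures in the 10 libraries, 1 point a gene, for the 8 effectors and 6 lists; filled points passed an adjusted p of 0.05 and red lines are medians. The effectors had a median of -0.78 and the proton pump of -0.42, while relatives of the 8 genes had a median of 0.33.

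Markers of macrophages and of the osteoclast lineage were read in the same fits. With all 12 libraries 10 of 11 macrophage markers were lower in LSD1cKO over the 3 cultures, with a median of -0.77, and all 9 osteoclast lineage markers were lower, with a median of -0.29, and none of either list was called. In the 10 libraries the macrophage markers turned, with 6 of 11 called higher (14.4% of all genes), 0 lower and a median of 0.89. There 7 of 9 osteoclast lineage markers were called lower (9.75% of all genes) and 0 higher, with a median of -0.79. Atp6v0d2, Mmp9, Itgb3, Oscar, Dcstamp and Nfatc1 belong to the latter marker list as well as to the lists above. The femur LSD1WT libraries left out had stood apart by these same marker lists. The marker medians and calls in the 10 libraries are therefore not independent of that choice. In the mandible alone the summed macrophage markers were 2323 and 2377 CPM for LSD1WT, against 2110 and 2724 CPM for LSD1cKO, and the summed osteoclast lineage markers were 15392 and 15422 CPM for LSD1WT, against 8349 and 9207 CPM for LSD1cKO. The part of a changed cell makeup in the effector levels was not tested.

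The 8 genes varied together across libraries, which is given as a description because the libraries share conditions and mice. Over the 12 libraries the log2 levels of Ctsk and Car2 had Pearson's r = 0.996, those of Acp5 and Ctsk 0.994, and the lowest of the 28 pairs was Car2 with Ostm1, at 0.529. The 12-library values are set mainly by the femur LSD1WT libraries numbered 2. Over the 10 other libraries Acp5 and Calcr kept 0.983 and Ctsk and Rab38 0.979, while Clcn7 and Slc4a2 had 0.447 and Clcn7 and Ctsk 0.482. Ostm1 rose to 0.947 with Rab38 and 0.922 with Ctsk. Among these 10 libraries, then, Acp5 followed Calcr, while Ctsk, Rab38 and Ostm1 followed one another. In LSD1cKO Calcr was lower in the mandible than in the femur of ligated mice. In LSD1WT its mandible values, 45.0 and 41.2 CPM, lay between the 2 ligated femur values, 135.3 and 0.154 CPM. Among the 10 libraries the lowest Calcr value, 13.6 CPM, was in the unligated femur LSD1cKO library numbered 2.

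The genes whose log2 CPM was most like the mean standardized level of the 8 effectors over the 12 libraries were Efnb2 (r = 0.997), Rasal2 (0.997), Spry1 (0.995), Gm20056 (0.994), Fat4 (0.993), Galm (0.993), Atp6v1d (0.992), Kazn (0.992), the gene listed as ENSMUSG00000120192 (0.992) and Adcy3 (0.992). Over the 10 libraries their r ran from 0.924, for ENSMUSG00000120192, to 0.988, for Galm. Efnb2, which encodes the membrane ligand ephrin-B2, stood at 25.9 and 25.1 CPM (LSD1WT) against 9.38 and 11.5 CPM (LSD1cKO) in the mandible. In the femur LSD1WT libraries it was at 34.5 and 0.411 CPM in ligated mice. Atp6v1d is the proton pump subunit of this group and stood at 666.9 and 114.9 CPM in the same libraries.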

How the data were processed

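Preosteoclasts were profiled by bulk RNA-seq in 12 libraries. The deposited values are raw read counts per Ensembl gene, made by the authors without normalization, as the whole numbers and differing totals show. The submitters' processing notes name HISAT2 2.1.0, FastQC, featureCounts, edgeR and build GRCm39, with no settings. Total counts had a median of 26364586 per library, and 3 counts correspond to 0.0927 to 0.154 CPM. Exon lengths (GENCODE vM21) and promoters (RefSeq) came from GRCm38 and were joined by Ensembl ID or symbol.

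In R 4.3.3, edgeR 4.0.16 kept 15425 genes (filterByExpr), scaled libraries by TMM and fitted quasi-likelihood models in which the 6 conditions each had a term or, for the comparison over the 3 cultures, culture and genotype did. P-values were adjusted by Benjamini-Hochberg over all genes tested and held to 0.05. CPM used TMM-scaled library sizes, and log2 CPM a prior count of 2. Counts were tested on simulated data first. Alternatives used DESeq2 1.42.0, limma 3.58.1, other scalings and filters, and left out libraries.

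The 8 genes, the gene lists and the left-out libraries were chosen with earlier results of these data known. Named beside the 8 genes are Kdm1a, the 10 genes most like the effectors, and list genes that passed a test or had the 2 lowest or 2 highest mandible values. Ctss, Rab32, Car5b, Atp6v0a1 and Efnb2 were singled out for their levels after the values were seen. Some list genes are not reported here by name. By the labels 3 mice gave both sites. Mandible and femur differences of the 2 LSD1cKO mice had r = 0.026 over genes. Libraries that share a replicate number alone were not treated as paired, since nothing in the labels ties them and not every pair deviated together (values in the closing section).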

Additional observations from a re-analysis of the deposited data

Results flagged for a closer look

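Among the 6 LSD1cKO libraries, 1 library stood far from the others for 2 of the 8 genes. The unligated femur LSD1cKO library numbered 2 was the lowest for Ctsk, at 2197 CPM against 3669 to 4326 CPM in the other 5, with a gap of 0.691 of the whole range. It was also the lowest for Rab38, at 23.0 CPM against 32.6 to 36.9 CPM, with a gap of 0.691 of the range. Both exceed Dixon's 95% critical value for 6 values. Of 16 groups tested (8 genes in 2 genotypes), these 2 were singled out, where chance alone gives about 5% per group. In LSD1WT the 2 low femur libraries lie together, so the gap of a single extreme value stays small. The LSD1WT ratios ran from 0.0157 for Rab38 to 0.172 for Clcn7 and do not show that those groups lack outlying libraries. The count over 16 groups is therefore not compared with chance. The 6 libraries come from 3 cultures, and the genes share their libraries.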

How the results depend on the processing

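For 8 genes and 9 comparisons, RLE and upper-quartile scaling, DESeq2 and the stricter filter left every count of called genes as given. The fold threshold could only remove calls, and none of the 8 genes was called without it, so it could change no count. With no filter on low counts the mandible median was -0.667. The femur LSD1WT libraries numbered 2 decide the rest, and the cause of their levels was not tested. Without both, 1 gene was called in the mandible and 6 over the 3 cultures, with a mandible median of -0.701. Each femur culture then held 1 LSD1WT library, and calls within it are not counted. Car2 then turned to -0.548 and Clcn7 to -0.369 over the 3 cultures. With the mandible LSD1WT pair also summed (chosen after seeing the data), 5 were called over the 3 cultures, the mandible median was -0.707, Car2 was at -0.601 and Clcn7 at -0.353. With the mouse as a replicate block in the same 10 libraries (also chosen after seeing the data), 1 was called in the mandible and 8 over the 3 cultures. The mandible median was then -0.701, with Car2 at -0.559 and Clcn7 at -0.394 over the 3 cultures. Fitting the compared conditions alone called 8 genes in the mandible and 4 between the sites in LSD1cKO. The mandible median was -0.702 with the conflicting library counted as femur and -0.707 with the LSD1WT pair summed, which turned Acp5 over the 3 cultures to 0.0274.

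The replicate number, which by the labels marks a shared mouse in some pairs only, was fitted as a replicate block with 12 libraries. Where only the number was shared, the differences between numbers 1 and 2 correlated over genes at 0.780 (femur LSD1WT, ligated with unligated), 0.224 (the same in LSD1cKO), 0.224 (LSD1WT with LSD1cKO, unligated femur) and -0.0226 (ligated femur). It turned the mandible median to 0.671, with Acp5 at 1.27, Ctsk at 0.901, Car2 at 1.55, Clcn7 at 0.112, Calcr at 1.15 and Rab38 at 0.441. Over the 3 cultures it gave Acp5 1.69, Ctsk 1.32, Calcr 0.831, Slc4a2 0.103 and Rab38 0.847, and it called none of the 8 genes. Blocking on the mouse in limma with 12 libraries used a fitted within-mouse correlation of -0.391. It gave a mandible median of -1.27 and an interaction median of -3.36. Over the 3 cultures it gave Acp5 2.79, Ctsk 2.80, Calcr 1.31, Slc4a2 0.0684 and Rab38 0.925, with none called.

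Leaving out 1 library at a time called none of the 8 genes in any comparison. The median over the 8 genes ran from -0.732 to -0.700 in the mandible. It ran from -0.903 (without ligated femur LSD1WT replicate 2) to 6.32 (without replicate 1) in ligated femur, and from -0.849 to 5.86 in unligated femur, likewise. Between sites it ran from -0.332 to 6.74 in LSD1WT and from -0.207 to -0.152 in LSD1cKO, with interaction medians from -7.31 to 0.108. For the ligature it ran from -6.57 to 6.35 in LSD1WT and from -0.297 (without unligated LSD1cKO replicate 2) to 0.748 (without replicate 1) in LSD1cKO. Over the 3 cultures the range was -0.384 to 0.650 for Acp5, -0.705 to 0.381 for Ctsk, -0.248 to 0.744 for Car2, -0.117 to 0.458 for Clcn7, -0.610 to 0.0752 for Slc4a2 and -0.749 to 0.279 for Rab38. A library at 3 or fewer counts, as for Calcr, limits a value to its counting interval.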
